A study of Camellia sinensis with 12 samples.

Results

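Leaves of 2 Kucha tea genotypes were compared by RNA sequencing, K6 (labelled Kucha-6) and K11 (labelled Kucha-11). The comparison used 6 of the 12 libraries of the series, namely the 3 labelled Kucha-6 and the 3 labelled Kucha-11. The other 6 libraries came from leaves of the conventional varieties Qingxin 1 (QX1) and Yinghong 9 (YH9), with 3 libraries each, and are used here only to show where a Kucha level lies among the genotypes. The series set genotypes of contrasting theacrine content against each other, so the K6 and K11 pair asks how far 2 genotypes on the same side of that contrast differ in leaf. All plants were untreated and grew in the same germplasm collection. The labels give neither leaf age nor the plants behind each library, so the spread that enters a p-value may be technical. Each genotype stands for itself alone.

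Kucha is a bitter tea whose leaves store theacrine, a purine alkaloid related to caffeine. In tea, caffeine is built from xanthosine by N-methyltransferases that take their methyl groups from S-adenosylmethionine, and theacrine is formed from caffeine by further oxidation and methylation. Young tea leaves are also rich in catechins, which come from the flavonoid pathway. The deposited tables list annotated genes under TEA identifiers and unannotated loci under XLOC identifiers, without gene names. None of the identifiers was found in the reference table (0 of 42704 against 80110 genes), so no function is given to any feature and the pathway and leaf marker lists could not be matched.

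Levels are FPKM, a count of fragments scaled by the length of the feature and by the fragments mapped in the library. Summed FPKM ran from 629355 to 633153 in K6 and from 623828 to 636916 in K11. Features listed at 0 numbered 9778 to 10923 per K6 library and 10028 to 10365 per K11 library. More features reached 1 FPKM in K11, with 24728 to 25228 in the K6 libraries and 25330 to 25676 in the K11 libraries. At 100 FPKM the order turned, with 890 to 921 features in K6 and 839 to 883 in K11. Neither pair of ranges overlapped. Sequencing depth is unknown because the files hold no counts.

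K6 and K11 leaves differed in many annotated genes and unannotated loci, in both directions. The tested set held 26464 features that reached 1 FPKM in 3 or more of the 6 Kucha libraries, and 5384 of them were called different (20.3%). A call required a Benjamini-Hochberg adjusted p below 0.05 in limma and a difference of at least 1 on the log2(FPKM + 1) scale, which is 2-fold for features well above 1 FPKM. K6 was higher in 2408 features (9.1%) and lower in 2976 (11.2%). The median difference of the called features was 1.61 on the log2 scale in the higher set (quartiles 1.26 and 2.16) and -1.52 in the lower set (quartiles -2.05 and -1.21). Without the size requirement, 12634 features (47.7%) had an adjusted p below 0.05.

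The spread between libraries of a genotype was small beside these differences. Across the tested features, libraries of K6 correlated with each other at a Pearson r of 0.971 to 0.979 and those of K11 at 0.976 to 0.978. Between K6 and K11 the 9 pairs of libraries gave 0.803 to 0.840. These values describe the libraries, since features are not independent replicates. In 5357 of the 5384 called features the 3 K6 libraries and the 3 K11 libraries did not overlap, and the same held for 15238 of all tested features (57.6%).

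Most features differed by less than 1 unit on this log2 scale. For 16628 features (62.8%) the 95% interval of the log2 difference lay entirely between -1 and 1. A further 4452 (16.8%) were neither called nor bounded in this way. With 0.1 FPKM added in place of 1 before the log2, 13766 features were bounded in this way and 6588 were called. TEA017601.1, the most abundant feature of each K11 library, belongs to the bounded set and is named for that rank. It stood at 6056, 5407 and 7412 FPKM in the K6 libraries and at 6149, 8035 and 6666 FPKM in the K11 libraries, which overlap. Its log2 difference was -0.15, with an interval of -0.49 to 0.20. Of the 10 most abundant features of each genotype, by mean FPKM, 5 were shared, and of the 100 most abundant 70 were shared. Of the 1000 most abundant of each genotype 739 were shared (73.9% of either list).

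**Figure D1:**
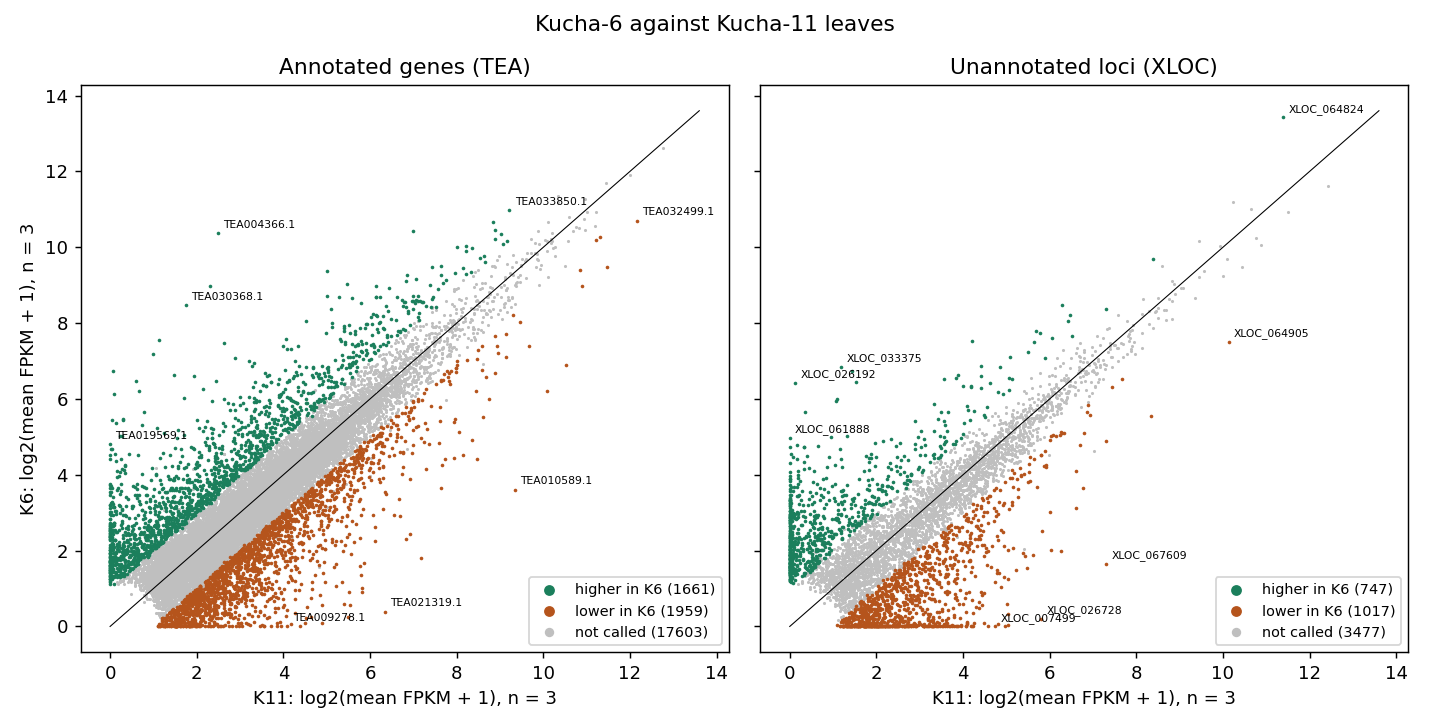
Mean level of each tested feature in K6 (vertical axis) against K11 (horizontal axis), both as log2(mean FPKM + 1) with 3 libraries per genotype, for annotated genes (left) and unannotated loci (right). Green points are higher and orange points lower in K6 by the limma call, grey points were not called and the line marks equal levels. The points along either axis are features near 0 in 1 genotype, and XLOC_064824 is the highest point of the right panel.

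A larger share of the unannotated loci than of the annotated genes was called. Among annotated genes 3620 of 21223 were called (17.1%), 1661 higher (7.83%) and 1959 lower (9.23%) in K6. That order turned with the scaling of the libraries, with 1816 higher and 1703 lower annotated genes after quantile normalization and 1851 and 1720 after scaling by trimmed means. Among unannotated loci 1764 of 5241 were called (33.7%), 747 higher (14.3%) and 1017 lower (19.4%) in K6. The share of features with an interval between -1 and 1 was 67.3% for annotated genes and 44.6% for unannotated loci. The excess of unannotated calls held at low and middle levels and not at high ones. With a mean of 1 to 10 FPKM over the 6 libraries, the called share was 39.3% for unannotated loci and 18.6% for annotated genes, and at 10 to 100 FPKM 18.8% and 13.2%. At 100 FPKM and above the order was the other way round, with 11.1% of 144 unannotated loci and 27.4% of 742 annotated genes. These shares are descriptions, and no test was made between the kinds.

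The balance of the calls differed between classes of abundance. At 1 to 10 FPKM the lower calls were the more numerous in K6, with 1453 higher and 1999 lower. At 10 to 100 FPKM there were 669 higher and 761 lower calls with the values as deposited, and this order turned after quantile normalization (736 higher and 684 lower) and after scaling by trimmed means (769 and 663). Among the 886 features with a mean of 100 FPKM or more, 154 were higher and 65 lower in K6, so 70.3% of the calls in this class were higher, against 44.7% of all calls. Annotated genes made up nearly all of them, with 142 higher and 61 lower. The higher calls were also the more numerous in this class under the other scalings, with 141 higher and 73 lower after quantile normalization and 179 and 57 after scaling by trimmed means. Of all calls, 49.6% were higher in K6 under either of these scalings, so the contrast with all calls depends in part on the scaling. Of the 30 features that ranked among the 100 most abundant of K6 alone, 22 were called higher in K6, and of the 30 in the K11 list alone 8 were called lower in K6. At the very top it was otherwise, since of the 5 features among the 10 most abundant of K6 alone 0 were called higher in K6, and of the 5 in the K11 list alone 4 were called lower in K6. A feature in the list of 1 genotype alone ranks higher there by selection, which nearly fixes the direction of any call. The counts from these lists are therefore a description only. The 641 tested features with a mean under 1 FPKM could pass the filter only by a high level in some of the libraries, so their share of calls is not read.

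**Figure D2:**
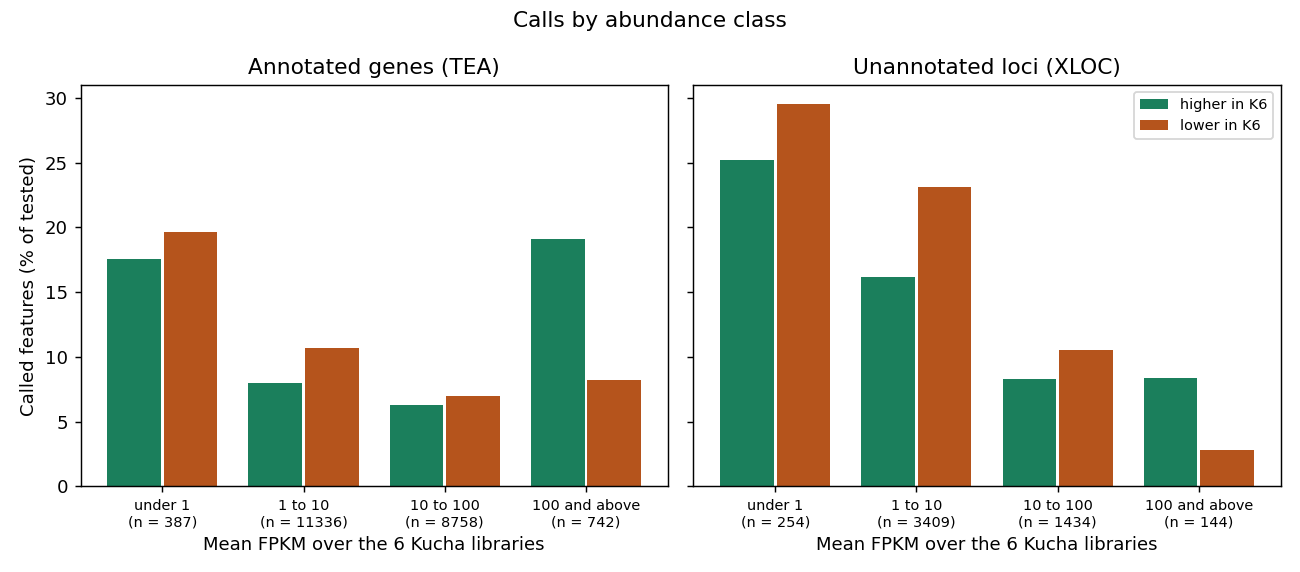
Share of tested features called higher (green) or lower (orange) in K6 than in K11, in percent, by class of mean FPKM over the 6 Kucha libraries, for annotated genes (left) and unannotated loci (right), with the number tested under each class. In the class of 100 FPKM and above the green bars exceed the orange ones in both panels, and in the lower classes the orange bars are the taller with the values as deposited. Counted over both kinds together, that order turned at 10 to 100 FPKM under the other scalings. Under 1 FPKM it turned after quantile normalization (143 higher and 139 lower), and the shares of that class are shown but not read.

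On the log2(FPKM + 1) scale the largest differences were found in features that were abundant in K6 and far lower in K11. TEA004366.1 had 1385, 1268 and 1324 FPKM in the K6 libraries, against 5.44, 5.44 and 2.88 FPKM in the K11 libraries. The groups were far apart and the feature ranked 28 by mean level in K6 and 17195 in K11. K6 exceeded K11 by 7.93 ± 0.18 (SE) on the log2 scale (limma, adjusted p = 1.01e-07). With 1 FPKM added before the log2, no other tested feature differed by as much in either direction. With 0.1 FPKM added instead, the difference was 8.20, below those of XLOC_026192 (8.83) and XLOC_061888 (8.25), which are described below. For TEA004366.1 QX1 averaged 459 ± 129 FPKM and YH9 1013 ± 348 FPKM (SD, n = 3 each), so K11 was the genotype with the low level.

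TEA030368.1 showed the same order of genotypes for K11. It stood at 307, 367 and 391 FPKM in K6, against 4.65, 0.83 and 1.55 FPKM in K11. Levels in K11 varied widely among the 3 libraries but stayed far below every K6 library, and the difference of K6 minus K11 was 6.90 ± 0.38 log2 units (SE; adjusted p = 1.37e-05 in limma). QX1 averaged 666 ± 27 FPKM and YH9 256 ± 16 FPKM (SD, n = 3 each), again far above K11. With 0.1 FPKM added before the log2, the difference of TEA030368.1 was 7.51. That is smaller in size than those of TEA021319.1 (-7.71), XLOC_026728 (-7.99) and XLOC_007499 (-8.01), which were lower in K6 and are described below.

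Among unannotated loci XLOC_026192 led the differences in favour of K6. This locus is placed on the plus strand of scaffold 2437 (412912 to 423762), with all positions in the tables' own coordinates (build: not given in the sources used here). It had 83.8, 91.0 and 81.0 FPKM in K6, against 0.16, 0.04 and 0.08 FPKM in K11. The K11 libraries were close to 0, and the difference was 6.30 on the log2 scale (limma, SE 0.11, adjusted p = 6.47e-08). It was expressed in QX1 at 58.5 ± 7.6 FPKM and in YH9 at 17.8 ± 0.89 FPKM (SD, n = 3 each).

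XLOC_033375 also differed widely between K6 and K11, but with another order of the genotypes. With 0.1 FPKM added in place of 1 before the log2, its difference was 6.42, well below the 8.83 of XLOC_026192. XLOC_033375 covers 1663 bases on the minus strand of scaffold 2990 (712528 to 714190). Levels were 101, 123 and 119 FPKM in K6, against 0.85, 1.59 and 1.37 FPKM in K11, a log2 difference of 5.68 ± 0.14 (SE; limma, adjusted p = 1.01e-07). QX1 (4.28 ± 0.62 FPKM) and YH9 (18.0 ± 2.9 FPKM; SD, n = 3 each) both lay well below K6, so here K6 held the high level alone.

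In the other direction TEA021319.1 was a gene of K11 leaves alone. K6 had 0.22, 0.16 and 0.56 FPKM, against 68.7, 85.6 and 85.2 FPKM in K11. The difference of K6 minus K11 was -5.95 ± 0.15 log2 units (SE; adjusted p = 1.05e-07 in limma). In QX1 and YH9 it was listed at no more than 0.09 FPKM in any library, so K11 was the sole genotype of the 4 in which this gene reached 1 FPKM.

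TEA010589.1 was expressed in all 4 genotypes, with K6 the lowest. Its levels were 16.2, 7.72 and 9.53 FPKM in K6, against 569.9, 575 and 797 FPKM in K11. The difference was -5.78 on the log2 scale (limma, SE 0.25, adjusted p = 1.68e-06). QX1 averaged 55.2 ± 9.98 FPKM and YH9 407 ± 49 FPKM (SD, n = 3 each), so the genotypes were spread over the whole range between K6 and K11.

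On the log2(FPKM + 1) scale the unannotated loci with the greatest deficit in K6 were XLOC_067609 and XLOC_026728. With 0.1 FPKM added in place of 1 their differences were -6.19 and -7.99, and that of XLOC_007499, described below, was -8.01. XLOC_067609, on the plus strand of scaffold 911 (53143 to 54187), had 1.71, 3.32 and 1.42 FPKM in K6, against 158, 189 and 122 FPKM in K11 (log2 difference -5.66 ± 0.23, SE; limma, adjusted p = 1.06e-06). XLOC_026728, on the plus strand of scaffold 2478 (828 to 1968), had 0.14 and 0.31 FPKM in 2 of the K6 libraries and was listed at 0 in the other, against 46.6, 50.9 and 67.5 FPKM in K11 (-5.60 ± 0.17; adjusted p = 2.6e-07). The conventional varieties split differently over the 2 loci. XLOC_067609 was low in QX1 (4.75 ± 4.3 FPKM) and higher in YH9 (57.1 ± 18 FPKM), while XLOC_026728 was expressed in QX1 (12.5 ± 2.8 FPKM) and nearly absent from YH9 (0.063 ± 0.11 FPKM; SD, n = 3 each).

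Differences of at least 8-fold on the log2(FPKM + 1) scale were called in 195 features higher (0.737% of those tested) and 234 lower (0.884%) in K6. Of those higher in K6, 118 were annotated and 77 (39.5%) unannotated. Of those lower in K6, 109 were annotated and 125 (53.4%) unannotated. Only 5241 of the 26464 tested features were unannotated loci, so these loci were over-represented among such large differences whichever genotype was higher. This is a description, and no test was made of it. The typical case was a moderate level in 1 genotype and almost none in the other, which the cut itself largely sets. For a feature at a moderate level, 8-fold on this scale leaves little in the other genotype. For the features higher in K6 the median level was 20.3 FPKM in K6 against 0.25 FPKM in K11, and for those lower in K6 it was 0.398 FPKM in K6 against 16.8 FPKM in K11. The K11 mean was under 1 FPKM in 130 of the 195, and the K6 mean was under 1 FPKM in 160 of the 234. A level of 100 FPKM or more in the higher genotype was reached by 28 and 20 features.

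The most abundant features that differed did so by smaller factors. XLOC_064824, an unannotated locus on the plus strand of scaffold 825 (411838 to 413583), was the most abundant feature of every K6 library. It stood at 10612, 11136 and 11418 FPKM in K6, against 2014, 3663 and 2331 FPKM in K11. This locus took 1.75% of the summed FPKM in K6 and 0.423% in K11. The difference of K6 minus K11 was 2.098 ± 0.20 log2 units (SE; adjusted p = 5.54e-05 in limma). QX1 was at the level of K6 (11739 ± 839 FPKM) and YH9 below K11 (930.02 ± 96 FPKM; SD, n = 3 each). TEA033850.1 was the most abundant annotated gene that was higher in K6. It had 1777, 2284 and 1972 FPKM in K6, against 691, 713 and 371 FPKM in K11, a log2 difference of 1.82 ± 0.24 (SE; limma, adjusted p = 0.000361). It ranked 11 by mean level in K6 and 94 in K11.

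Among the annotated genes called lower in K6, TEA032499.1 was the most abundant over the 6 libraries. It had 1662, 1368 and 1971 FPKM in K6, against 4648, 4819 and 4178 FPKM in K11. The ranks were 17 in K6 and 3 in K11, and the difference was -1.46 on the log2 scale (limma, SE 0.14, adjusted p = 5.56e-05). QX1 (2127 ± 563 FPKM) and YH9 (1495 ± 169 FPKM; SD, n = 3 each) were closer to K6. XLOC_064905, on the minus strand of scaffold 8306 (478925 to 481554), had 164, 168 and 212 FPKM in K6, against 1009.8, 1221 and 1132 FPKM in K11, a log2 difference of -2.63 ± 0.12 (SE; limma, adjusted p = 1.43e-06). Its levels in QX1 (301 ± 40 FPKM) and YH9 (144 ± 21 FPKM; SD, n = 3 each) were again nearer K6, so both of these features were highest in K11.

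**Figure D3:**
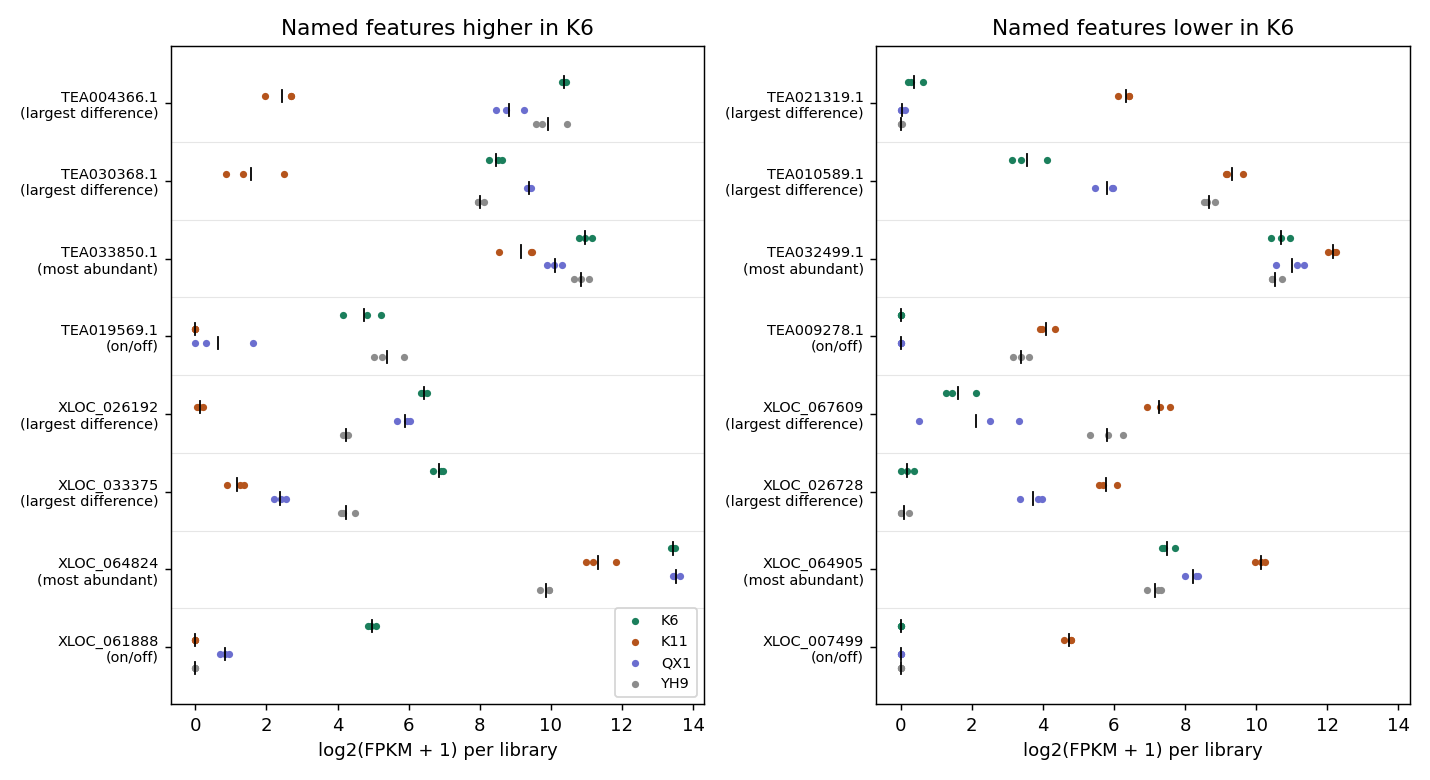
Level of the 16 features chosen by the naming rule in each library, as log2(FPKM + 1), for features higher in K6 (left) and lower in K6 (right). Each point is a library, colours mark K6, K11, QX1 and YH9 from top to bottom within a feature, and a black tick marks the mean of 3 libraries. The K6 and K11 points do not overlap in any of the 16 features, as the naming rule requires. QX1 and YH9 lie with K6 for some and with K11 for others.

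Some features were present in 1 Kucha genotype and listed at 0 in every library of the other. With at least 1 FPKM in all 3 libraries as present, 262 features were present in K6 and listed at 0 in K11 (0.99% of those tested). The reverse held for 233 features, present in K11 and listed at 0 in K6 (0.88%). Unannotated loci made up 174 of the 262 and 168 of the 233, or 3.32% and 3.21% of the tested unannotated loci. The annotated genes in the sets were 0.415% and 0.306% of the tested annotated genes. All features of both sets were also called by limma, which their selection nearly ensures. Most were low where present, with a median of 3.11 FPKM in K6 for the first set and 2.99 FPKM in K11 for the second. A mean of 10 FPKM was reached by 20 and 22 features. At such levels a 0 may be a low value lost in rounding, and with every level below 0.1 FPKM taken as absent, in place of 0, the counts were 338 present in K6 and 306 present in K11. With a limit of 5 FPKM for presence in place of 1 the counts were 50 and 46.

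The most abundant of these features differed in their levels in the conventional varieties. XLOC_061888, on the plus strand of scaffold 740 (1755432 to 1756929), had 27.9, 29.9 and 33.2 FPKM in K6 and was listed at 0 in all 3 K11 and all 3 YH9 libraries (limma, adjusted p = 1.44e-07). QX1 held a trace of it, at 0.773 ± 0.15 FPKM (SD, n = 3). TEA019569.1 had 16.7, 36.3 and 27.7 FPKM in K6 and was listed at 0 in K11 (limma, adjusted p = 2.74e-06). This gene was high in YH9 (42.0 ± 13 FPKM) and near 0 in QX1, where the libraries had 0.22, 0 and 2.09 FPKM.

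XLOC_007499 was found in K11 alone. The locus, on the plus strand of scaffold 1347 (889034 to 892050), was listed at 0 in the 3 K6 libraries and had 26.8, 26.7 and 23.4 FPKM in K11 (limma, adjusted p = 2.22e-07). It was also listed at 0 in all 6 libraries of QX1 and YH9. TEA009278.1, listed at 0 in K6 and at 14.2, 14.7 and 19.3 FPKM in K11 (limma, adjusted p = 1.04e-06), was listed at 0 in QX1 as well and present in YH9 at 9.57 ± 1.6 FPKM (SD, n = 3).

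Among the features present in K11 and listed at 0 in K6, many were also listed at 0 in QX1. Of the 262 features present in K6 and listed at 0 in K11, 57 (21.8%) were listed at 0 in all 3 QX1 libraries and 92 (35.1%) had at least 1 FPKM in all of them. Of the 233 features present in K11 and listed at 0 in K6, 102 (43.8%) were listed at 0 in QX1 and 33 (14.2%) had at least 1 FPKM there. In YH9 the shares of the sets lay closer together. Of the features present in K6, 86 (32.8%) were listed at 0 in YH9 and 79 (30.2%) had at least 1 FPKM. Of those present in K11, 73 (31.3%) were listed at 0 in YH9 and 58 (24.9%) had at least 1 FPKM. Features listed at 0 in all 9 other libraries numbered 38 for K6, 9 of them annotated, and 44 for K11, 5 of them annotated. Of all 42704 listed features, 7513 were at 0 in all 3 QX1 libraries and 6471 in all 3 YH9 libraries. That wider set includes features outside the tested set, so it is no direct background for the shares above. No test was made of these shares, and they say nothing of the other features listed at 0 in K6 or in K11.

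**Figure D4:**
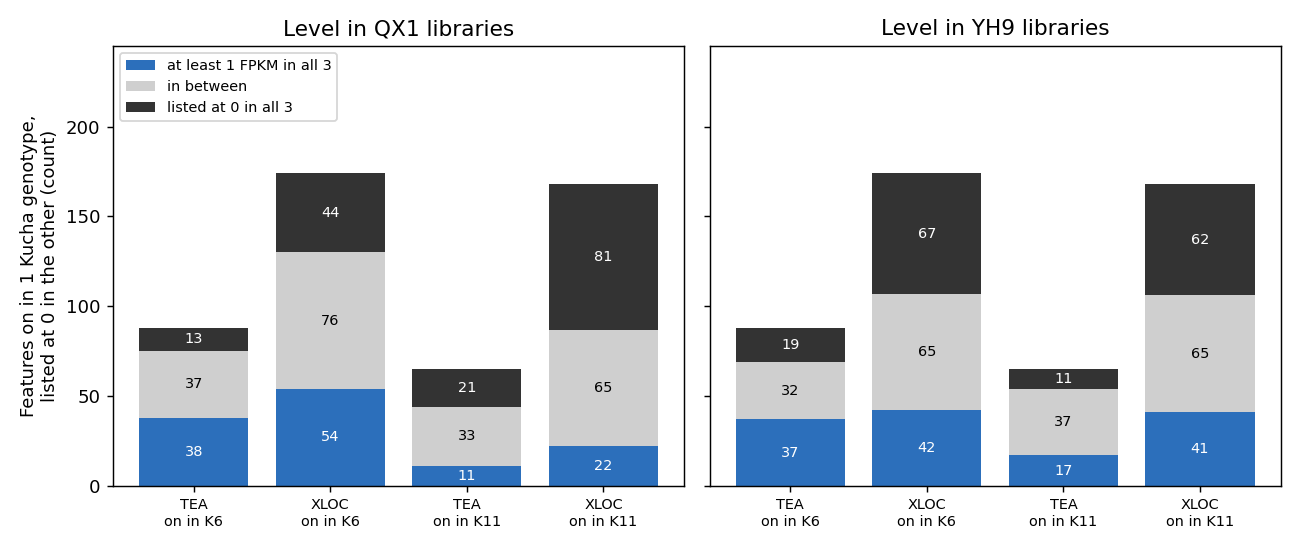
Number of features with at least 1 FPKM in all 3 libraries of 1 Kucha genotype and listed at 0 in all 3 of the other, split by kind and by the genotype in which they were present, and coloured by their level in QX1 (left) and YH9 (right). The dark part, listed at 0 in all 3 QX1 libraries, is 44 of 174 for unannotated loci present in K6 and 81 of 168 for those present in K11.

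The called features were also set among all 4 genotypes. In 1780 of the 5384 called features (33.1%) all 3 K6 libraries lay beyond the 9 libraries of the other genotypes, 1010 times above them and 770 times below. K11 lay beyond the others in 3039 called features (56.4%), 1844 times above and 1195 times below. Since a call already sets K6 and K11 apart, these shares are a description, and over all 26464 tested features they were 14.1% for K6 and 23.9% for K11. The 2 genotypes stood at opposite ends in 620 features, and neither was at an end without overlap in 1185. After quantile normalization over the 12 libraries, a scaling chosen after seeing the data, the counts were 1789 for K6 and 3036 for K11. The difference between the counts was not tested.

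By the mean level, QX1 lay nearer K6 than K11 in 1432 of the 2408 features higher in K6 (59.5%) and in 2183 of the 2976 lower in K6 (73.4%), beside 59.2% of all tested features. In the features lower in K6 the median level was 1.36 FPKM in K6 and 7.56 FPKM in K11, with 2.44 FPKM in QX1 and 3.43 FPKM in YH9. In the features higher in K6 it was 8.43 FPKM in K6 and 1.51 FPKM in K11, with 5.56 FPKM in QX1 and 4.88 FPKM in YH9. YH9 was split more evenly. It lay nearer K6 in 50.6% of the features higher in K6 and in 56.9% of those lower in K6, beside 52.0% of all tested. The first of these shares crossed the middle with quantile normalization, at 47.2%.

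Neighbouring unannotated loci that differed mostly did so in the same direction. Positions are given for these loci only. Among 574 pairs of adjacent tested loci on the same scaffold with at most 10 kb between them, 30.8% of the members were called. Both members were called in 103 pairs. In 85 of these (82.5%, 95% Wilson interval 74.1 to 88.7%, counting error only) both were higher or both lower in K6. The share was 84.6% in 65 pairs on the same strand and 78.9% in 38 pairs on opposite strands, and it was 87.7% in the 81 pairs with both members called and at most 2 kb between them. Of all called unannotated loci 42.3% were higher and the rest lower in K6, so many called pairs would share a direction even if neighbours were unrelated. The shares were not tested against this. Neighbours may be parts of 1 transcript, and 181 of the pairs overlap. The library text speaks of dUTP in the second strand, but the use of strand in the quantification is not stated, so reads of overlapping loci cannot be told apart with certainty.

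Called loci had shorter spans than the others. The median genomic span was 2877 bases for called and 4186 bases for other unannotated loci, with 2878 bases in the set higher and 2875 bases in the set lower in K6. Calls were spread over both strands, with 33.3% of the loci on the plus strand and 34.1% of those on the minus strand. The called loci lay on 1164 of the 2129 scaffolds that held a tested locus.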

How the data were processed

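Leaf RNA of 12 libraries was sequenced, 3 for each of K6, K11, QX1 and YH9, grouped by their titles. The tissue label (leaf) was followed, although the extraction protocol names retinas. The authors deposited 1 table per library with FPKM values to 2 decimals, per the file headers. Bowtie2 2.2.8 and TopHat2 2.1.1 are named in the submitters' processing notes. The quantification program, its treatment of reads with several matches, the genome build and the annotation: not given in the sources used here. Paralogs may therefore share reads.

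Features that reached 1 FPKM in 3 or more of the 6 Kucha libraries were kept. Their log2(FPKM + 1) values were fitted by limma 3.58.1 (R 4.3.3; trended, robust prior) with the contrast K6 minus K11, and p-values were adjusted over all 26464 features. Differences on this scale understate those of low features. The script was tested on simulated data. Depth is unknown, so no interval from counts is given for a level. Libraries of K6 shared at most 1.32% of their values above 0 and those of K11 at most 0.733%, so none is a copy.

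The members, lists and thresholds were chosen with earlier results of these data known. Named features do not overlap between K6 and K11. In each direction they are the 2 annotated and 2 unannotated features with the largest difference, the most abundant called feature of each kind, and the most abundant of each kind that was listed at 0 in the other genotype. Any other feature was named after its values were seen. The counts of features in which a genotype stood apart, the shared lists of abundant features, the subset of at least 8-fold and the spans and strands of loci were added after seeing the data. Alternatives covered the pseudocount, filter, scaling, prior, samples in the fit, a replicate block and leaving out each library.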

Additional observations from a re-analysis of the deposited data

How the results depend on the processing

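Depth is unknown, and features near 0 are limited by the 2 decimals of the tables. The cause of the changes below was not tested, except that a stricter filter tests fewer features and a looser rule admits more. With a filter of 5 FPKM, 3118 features were called (1421 higher and 1697 lower in K6), of them 1092 and 1223 annotated and 329 and 474 unannotated, and 601 and 872 in the class of 1 to 10 FPKM. No value exists there for means under 1 FPKM. In that class a pseudocount of 0.1 gave 227 lower calls in place of 151, and no filter gave 292 higher and 276 lower. Without the fold threshold 5149 features were higher and 7485 lower, 12634 in all. Requiring 5 FPKM left 50 features present in K6 and 46 present in K11 with 0 in the other. With quantile normalization over 12 libraries QX1 was nearer K6 in 61.9% of the features higher in K6 and in 71.3% of those lower in K6, and YH9 in 47.2% and 61.9%. Leaving out 1 library gave 5282 to 5508 calls, and 306 to 343 features present in K6 or 261 to 330 present in K11 with 0 in the other, since fewer libraries had to meet the rule. Quantile normalization gave 2623 higher and 2668 lower features and trimmed means 2652 and 2691, so the excess of lower calls over the 2408 higher ones nearly vanished. Same-numbered libraries showed no shared deviation, with correlations of 0.0021, -0.030 and -0.014. These values cannot show whether such libraries were collected or prepared together. With the replicate block 5406 features were called. All 16 named features kept their direction and call under each of the 14 alternative fits. They were picked from the calls of the same libraries, so this is a description only.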

Other observations

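Unannotated loci present in 1 Kucha genotype and listed at 0 in the other lay mostly on separate scaffolds. The 5241 tested unannotated loci lay on 2129 scaffolds, and the spread was not compared with that of equally small sets drawn from them. The 174 loci present in K6 lay on 162 scaffolds and the 168 present in K11 on 159, with 11 and 8 scaffolds holding more than a single one. No scaffold held more than 3 in either direction, and each direction had 1 scaffold with 3. The loci named here were picked after their values were seen.

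On scaffold 943 the 3 loci were present in K6. XLOC_068484 (3047098 to 3049498) had 9.57, 14.98 and 8.35 FPKM in K6 and XLOC_068485 (3049580 to 3050201) had 14.2, 18.8 and 10.9 FPKM, both on the plus strand, and both were listed at 0 in the 9 libraries of K11, QX1 and YH9. In both of these neighbouring loci the second K6 library was the highest and the third the lowest. XLOC_068476 (2010597 to 2014918) lay far from them, at 1.65 ± 0.39 FPKM in K6 and 0 in K11, and it was also found in QX1 (1.17 ± 0.55 FPKM) and YH9 (0.65 ± 0.12 FPKM; SD, n = 3 each).

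On scaffold 228 the 3 loci were present in K11. XLOC_023767 (plus strand, 1468935 to 1474867) was listed at 0 in K6 and averaged 3.97 ± 1.01 FPKM in K11, and XLOC_023816 (minus strand, 1476475 to 1478363) was listed at 0 in K6 and averaged 2.85 ± 0.76 FPKM in K11. XLOC_023819 (minus strand, 1666522 to 1668469) was listed at 0 in K6 and averaged 8.87 ± 1.8 FPKM in K11 (SD, n = 3 each). YH9 was listed at 0 for these 3 loci, and QX1 was as well, apart from 0.59 FPKM of XLOC_023819 in 1 library.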
